A study of Mus musculus with 28 samples.

Results

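Regulatory T cells (Tregs) with low surface OX40, called OX40minus after the labels, were compared between B16 melanomas and spleens of mice. The samples were chosen by their labels as the OX40minus samples of either tissue: 14 of the 28 libraries of the series, which make 7 of its 14 samples, 4 from tumors and 3 from spleens. All groups came from Foxp3-GFP mice, a strain in which green fluorescent protein (GFP) reports the Treg transcription factor Foxp3. Each mouse had received B16 melanoma cells, a mouse melanoma line, in the skin of its right side, and tissues were taken 7 to 10 days later, so the spleens too came from tumor-bearing animals. After digestion, cells were stained for CD45, CD3, CD4 and OX40 and sorted for GFP, with a low OX40 gate (OX40minus) and a high one (OX40plus). Age, sex, the design of the reporter allele and whether tumor and spleen samples with the same mouse number came from the same animal were not in the sources used. The OX40plus samples, 4 from tumors and 3 from spleens, were sorted in the same way and served here to ask where the tissue difference of OX40minus Tregs differs from theirs.

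Tregs are CD4 T cells that restrain immune responses and are held in that state by Foxp3. In lymphoid organs many of them are resting, central Tregs that recirculate under Klf2, Tcf7 and Bach2, whereas Tregs of skin, tumors and other tissues are known as effector Tregs, with more inhibitory and costimulatory receptors, tissue chemokine receptors, interleukin-10 and the repair factor amphiregulin. OX40, the product of Tnfrsf4, is a costimulatory member of the TNF receptor family that T cells raise after activation and that Tregs carry at a basal level. The comparison asks how Tregs with little surface OX40 differ between a tumor and a lymphoid organ of tumor-bearing mice.

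The 7 samples had 23.2 M to 28.7 M estimated counts each, at which 3 counts correspond to 0.106 to 0.124 CPM (counts scaled to a common library size). Values below are CPM per mouse, in the order of the mouse numbers. Of 12512 genes tested with limma, 7387 (59.0%) were called at an adjusted p under 0.05, 3718 (29.7%) higher and 3669 (29.3%) lower in tumor OX40minus Tregs. The median log2 fold change over all genes was -0.03. Counts of called list members below are to be read beside these shares of 29.7% higher and 29.3% lower. The 4 tumor and 3 spleen values did not overlap for 7923 genes (63.3%). The first principal component, with 65.5% of the variance, separated the tissues. The second, with 12.7%, set tumor mice 1 and 2 apart from tumor mice 3 and 4. Tissue, its digestion and its handling cannot be told apart in this design, and the sex of the mice in each tissue was not in the sources.

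Markers of other cell types differed between the tissues as well, and so stand before the results. T cell markers were high in every sample, with a summed level of 8 genes of 3780 to 4670 CPM in spleens and 7690 to 8250 CPM in tumors, and 7 of the 8 rose, Cd4 being the exception. The 7 B cell genes fell from a sum of 408 to 549 CPM in spleens to 1.55 to 4.77 CPM in tumors, and all 7 were called lower. Pax5, the factor that commits cells to the B lineage (chromosome 4, 44524757 to 44710487), was at 70.2, 105 and 117 CPM in spleens and at 0, 0, 0.0713 and 0 CPM in tumors, about 2 estimated counts over the 4 tumors. Macrophage or monocyte genes summed to 901 to 1140 CPM in spleens and 272 to 406 CPM in tumors, with 9 of 13 lower, and 7 of 8 red pulp macrophage genes were lower (474 to 622 against 67.6 to 110 CPM). Slc40a1, the iron exporter of red pulp macrophages, was at 139, 202 and 139 CPM in spleens and at 0.448, 1.04, 0 and 8.46 CPM in tumors, the last sample standing above the others. Neutrophil genes were low in both tissues and lower in tumors (35.7 to 53.5 against 4.35 to 9.23 CPM, 4 of 6 lower).

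Other markers went the opposite way. Dendritic cell genes summed to 58.4 to 63.5 CPM in spleens and 181 to 250 CPM in tumors, with 7 of 10 higher and 1, the class II gene H2-Ab1 that B cells also express, lower (-2.01). Melanoma genes rose from 27.2 to 32.3 CPM to 134 to 187 CPM (7 of 8 higher and Mitf, the melanocyte factor, lower, -2.30), fibroblast genes from 8.4 to 15.6 CPM to 66.9 to 143 CPM (4 of 8 higher), and erythroid genes from 8.73 to 13.2 CPM to 87.2 to 166 CPM (3 of 5 higher and Epor lower, with 0 estimated counts in all 4 tumors). The Mitf call was lost without spleen mouse 2, tumor mouse 1 or tumor mice 3 and 4. The call of Alas2, among the higher erythroid genes, was lost with limma-voom (adjusted p = 0.0576) and with the second libraries alone. It was also lost without spleen mouse 1, 2 or 3, without tumor mouse 1 or 3, and without tumor mice 1 and 2 or 3 and 4. Leaving out spleen mouse 2 or 3, tumor mouse 3, or tumor mice 3 and 4 together left 2 called fibroblast genes in each case. Of the CD8 T cell genes, Cd8b1 was called higher (0.66) and Cd8a was at 11.5 CPM in spleens and 12.5 CPM in tumors on average (log2 fold change of -0.01 ± 0.31 SE, adjusted p = 0.989). The Cd8b1 call was lost in limma without tumor mice 3 and 4 (adjusted p = 0.0747). Of 8 natural killer (NK) cell genes, 4 were lower and Klrk1 was higher, of 7 endothelial genes 1 was lower, and the plasma cell and keratinocyte lists, with 2 tested genes each, had no call in limma. The NK cell genes had 2 lower calls without spleen mouse 1 or 2 or tumor mice 1 and 2. The endothelial genes had 1 higher call with the OX40minus samples fitted alone, with the second libraries alone and without tumor mouse 1. They had 2 higher calls with log2(CPM + 1), 3 higher calls without tumor mice 1 and 2, and 2 lower calls without tumor mice 3 and 4. At an unadjusted p under 0.05, 1 keratinocyte and 1 plasma cell gene were lower, and limma-voom called 1 plasma cell gene and 0 keratinocyte genes lower. The keratinocyte gene Dsp was called lower with the OX40minus samples fitted alone (adjusted p = 0.0197), with log2(CPM + 1) (adjusted p = 0.0267) and without tumor mouse 3 (adjusted p = 0.0277), and the plasma cell gene Sdc1 without tumor mouse 3 (adjusted p = 0.0095) or 4 (adjusted p = 0.0182). Tumor mice 3 and 4 carried more transcripts of vessel and matrix genes: Sparc, a matrix protein of fibroblasts and vessel cells, was at 12.3, 10.1, 70.6 and 81.9 CPM over the 4 tumors, and Kdr, the endothelial growth factor receptor, at 3.33, 3.54, 20.9 and 18.9 CPM. In bulk samples such as these, fewer cells of a type and less RNA per cell cannot be told apart, and the part of other cells in the results below was not tested.

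**Figure D1:**
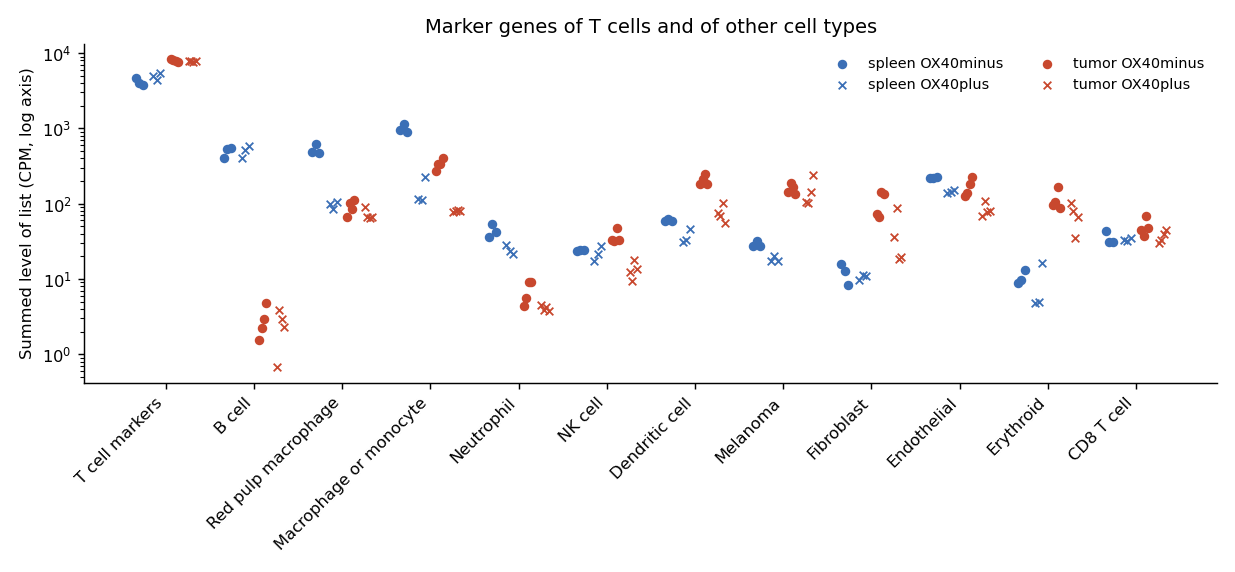
Summed CPM (log axis) of marker genes of T cells and of 11 other lists in each sample, spleen in blue and tumor in red, with circles for OX40minus and crosses for OX40plus samples. In both gates B cell and neutrophil genes sit higher in spleen samples and melanoma and fibroblast genes higher in tumor samples, whereas red pulp macrophage genes stand out in spleen OX40minus samples alone.

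The transcription factors and the interleukin-2 receptor that define Tregs were not called, whereas several receptors of activated Tregs rose. Foxp3 (chromosome X, 7573644 to 7595245) was at 41, 23.3 and 33.2 CPM in spleens and at 39.3, 44.2, 34.3 and 49.7 CPM in tumors, values that overlapped (log2 fold change of 0.39 ± 0.36 SE, adjusted p = 0.36). Il2ra, the interleukin-2 receptor alpha chain, was at 881 ± 73.8 CPM (SD, n = 3) and 973 ± 59.8 CPM (SD, n = 4), also with overlap (0.15 ± 0.10, adjusted p = 0.237). Ikzf2, which encodes the Treg factor Helios, was at 492, 613 and 641 CPM in spleens and 788, 759, 693 and 797 CPM in tumors and just missed the threshold (0.39 ± 0.16, adjusted p = 0.0502), which it passed with the OX40minus samples fitted alone (adjusted p = 0.00538). Of the 14 Treg identity genes, 6 were higher, 2 lower and 6 not called, with a median log2 fold change of 0.39, beside 29.7% higher and 29.3% lower of all genes. The 2 lower genes were Gpr83, a receptor of resting Tregs (-2.65), and Izumo1r, the folate receptor 4 gene (-1.22). Entpd1, which encodes the ATP-degrading enzyme CD39, rose from 72.8 ± 4.36 to 145 ± 4.97 CPM (log2 fold change of 1.00 ± 0.11 SE, adjusted p = 9.59e-07), and Itgae, the CD103 integrin chain, rose by a like amount (0.95).

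Among costimulatory and inhibitory receptors, some rose strongly, some fell and others were not called. Tnfrsf4 itself (chromosome 4, 156013843 to 156016612), whose protein was low by the gate in both tissues, was at 298, 242 and 218 CPM in spleens and at 2159, 1862, 1964 and 1816 CPM in tumors (log2 fold change of 2.96 ± 0.12 SE, adjusted p = 1.08e-11). All 4 tumor values were above all 3 spleen values, and also above the spleen OX40plus mean of 704 ± 111 CPM (SD, n = 3). Whether the low gate held the same amount of OX40 protein in both tissues was not tested. Tnfrsf9, the 4-1BB receptor of recently activated Tregs (chromosome 4, 150914562 to 150946102), was at 125, 111 and 117 CPM and 2808, 2338, 2613 and 2532 CPM (4.45 ± 0.10, adjusted p = 3.15e-14). Tnfrsf18, which encodes GITR, rose from 330.5 ± 57.1 to 1629 ± 149 CPM (2.31), and Tnfrsf8, which encodes CD30, rose by 1.91. Of 13 TNF receptor family genes, 6 were higher, 3 lower and 4 not called (median 0.09), beside 29.7% higher and 29.3% lower of all genes. Tnfrsf14, which encodes the receptor HVEM, fell from 51.6 ± 7.31 to 14 ± 2.99 CPM (-1.90). The other lower genes were Tnfrsf25, the death receptor 3 gene (-0.60), and Tnfrsf26 (-0.74). Without spleen mouse 3, or without tumor mice 1 and 2, Tnfrsf14 alone kept its call.

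Among 12 inhibitory receptors, 6 were higher and 4 lower (median 0.78). Ctla4, which removes costimulatory ligands from dendritic cells (chromosome 1, 60887000 to 60915832), was at 506, 459 and 451 CPM in spleens and 3618, 3979, 4010.0 and 3372 CPM in tumors (log2 fold change of 2.99 ± 0.09 SE, adjusted p = 4.42e-13). Its costimulatory relative Icos was at 331, 310.2 and 274 CPM and 1615, 1539, 1569 and 1556 CPM (2.37 ± 0.09, adjusted p = 6.06e-12). Pdcd1, which encodes PD-1, rose from 30.9 ± 6.47 to 173 ± 10.9 CPM (2.50). Havcr2, which encodes TIM-3 (3.10), and Klrg1, a mark of terminally differentiated Tregs (2.53), rose too. The receptors that fell were Lag3 (from 76 ± 15.2 to 24.7 ± 6.21 CPM, -1.64), the HVEM ligand Btla (-1.93), Cd96 (-1.38) and Cd160 (-2.35). Both Btla and its partner gene Tnfrsf14 were therefore lower in tumors.

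**Figure D2:**
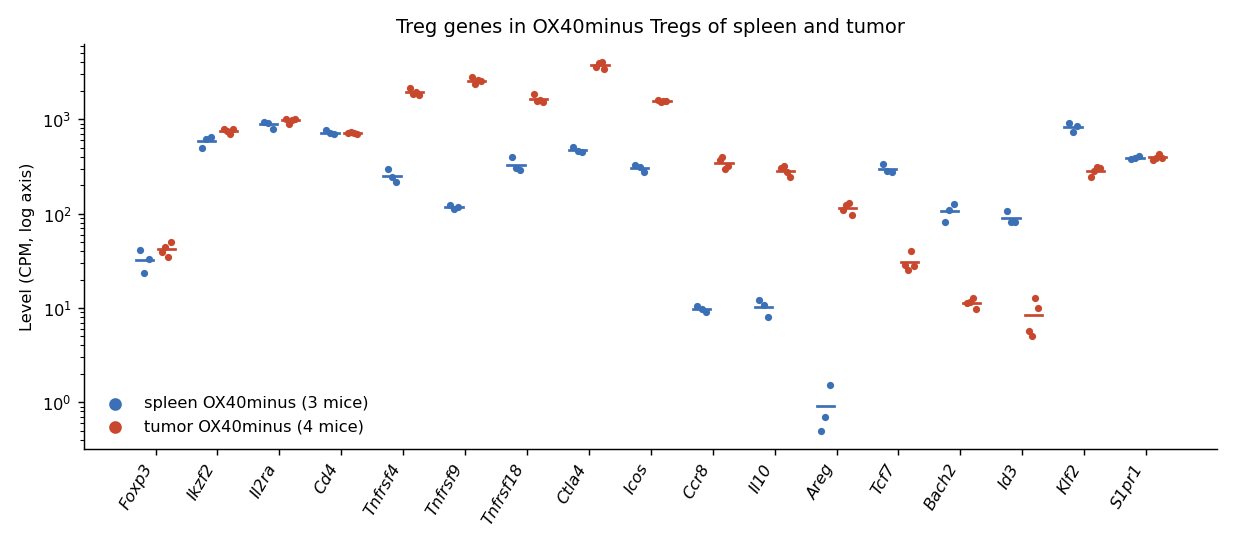
CPM (log axis) of 17 Treg genes in each OX40minus sample, spleen in blue (3 mice) and tumor in red (4 mice), with a bar at each group mean. Foxp3, Il2ra, Cd4 and S1pr1 overlap between tissues, receptors and Il10 and Areg lie higher in tumors, and Tcf7, Bach2, Id3 and Klf2 lie lower.

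Chemokine receptors of tissue Tregs rose, and several receptors for lymphoid sites fell. Ccr8, a chemokine receptor known from tumor and skin Tregs (chromosome 9, 120092114 to 120094906), was at 10.5, 9.66 and 8.94 CPM in spleens and at 371, 397, 298 and 323 CPM in tumors (log2 fold change of 5.15 ± 0.12 SE, adjusted p = 3.15e-14). Cxcr6, the receptor for Cxcl16 (chromosome 9, 123806475 to 123811760), was at 2.62, 2.79 and 3.05 CPM and 107, 121, 129 and 89.3 CPM (5.27 ± 0.17, adjusted p = 8.26e-13). Ccr2, a receptor for inflammatory monocyte chemokines, was at 135 ± 16.1 CPM in spleens and 1658 ± 82.6 CPM in tumors (3.62). Of 20 genes of the chemokine receptor list, 11 were higher and 4 lower (median 1.11), Ccr3 (3.16) and the interferon-linked receptor Cxcr3 (2.32) being among the higher ones. The 4 lower genes were Cxcr5, which leads to B cell follicles (-2.51), the gut receptor Ccr9 (-2.41), Cxcr4 (-0.70) and S1pr4 (-1.94). S1pr4 is a sphingosine-1-phosphate receptor that the list includes. Cxcr5 and Ccr9 are also known in B cells, whose markers fell in the same samples. Ccr3 and Ccr2 are also known in myeloid cells, whose dendritic cell genes rose and whose macrophage genes fell.

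Genes of the resting state fell in most cases. Tcf7, the gene of the Wnt pathway factor TCF1 (chromosome 11, 52252371 to 52283014), was at 337, 283 and 275 CPM in spleens and at 28.8, 25.2, 39.9 and 28.1 CPM in tumors (log2 fold change of -3.30 ± 0.36 SE, adjusted p = 9.59e-07). Bach2, a repressor that keeps Tregs in a resting state (chromosome 4, 32238804 to 32586108), was at 80.6, 109.7 and 127 CPM and 11.2, 11.7, 12.8 and 9.63 CPM (-3.21 ± 0.31, adjusted p = 2.57e-07). Id3, an inhibitor of E proteins (chromosome 4, 136143497 to 136145755), was at 107, 82 and 81.1 CPM and 5.68, 5.02, 12.8 and 9.87 CPM (-3.52 ± 0.30, adjusted p = 5.73e-08). None of these genes overlapped between the tissues. Klf2, the factor that keeps T cells recirculating, was at 906, 736 and 840.1 CPM in spleens and 242, 282, 315 and 304 CPM in tumors (-1.54 ± 0.16, adjusted p = 6.13e-07), and the interleukin-6 receptor gene Il6ra fell by more (-2.52).

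Of 19 genes of resting and recirculating T cells, 13 were lower and 1 was higher (median -0.83). The higher one was Cd69, whose protein retains T cells in tissues by removing the receptor S1pr1 from the surface (2.82). S1pr1 itself was at 376, 387 and 409 CPM in spleens and at 366, 389, 430.0 and 389 CPM in tumors, with no called difference (log2 fold change of 0.01 ± 0.08 SE, adjusted p = 0.939). Ccr7, the lymph node homing receptor, was at 187, 158 and 159 CPM and 155, 184, 170.3 and 156 CPM (-0.01 ± 0.13, adjusted p = 0.944). OX40minus Tregs of tumors thus had far lower Tcf7, Bach2 and Id3 levels beside S1pr1 and Ccr7 levels that overlapped those of spleens.

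Factors of effector lineages rose, 12 of 18 genes, with 2 lower (median 1.26). Id2, which opposes E proteins as Id3 does (chromosome 12, 25093799 to 25097140), was at 33.1, 29.3 and 25.6 CPM in spleens and at 506, 515, 550.2 and 475 CPM in tumors (log2 fold change of 4.13 ± 0.12 SE, adjusted p = 2.59e-13), the opposite direction to Id3. Bhlhe40, a repressor known from tissue-resident T cells (chromosome 6, 108660629 to 108666925), was at 25.3, 23.5 and 25 CPM and 380.2, 479, 564 and 386 CPM (4.18 ± 0.14, adjusted p = 1.48e-12). Nfil3 (3.40), the effector Treg factor gene Prdm1 for Blimp-1 (2.55), Tbx21 for T-bet (2.66) and Rora (2.42) rose too. Gata3 and Batf, needed by tissue Tregs, rose by less (0.95 and 1.41). The lower factors were Bcl6, of follicular T cells (-1.11), and Irf4 (-0.46). Irf4 lost its call without spleen mouse 2 or 3, without tumor mouse 1 or 3, and without tumor mice 3 and 4 together.

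Secreted products of effector Tregs rose as well. Areg, which encodes the epithelial repair factor amphiregulin (chromosome 5, 91139599 to 91148432), was at 0.5, 0.699 and 1.52 CPM in spleens and at 109, 123, 129 and 96.3 CPM in tumors (log2 fold change of 7.10 ± 0.30 SE, adjusted p = 1.47e-11). Il10 (chromosome 1, 131019845 to 131024974) was at 12.1, 10.7 and 7.95 CPM and 301, 318, 275 and 245 CPM (4.80 ± 0.15, adjusted p = 4.42e-13). Fgl2, a suppressive protein of Tregs, rose from 76 ± 8.23 to 712 ± 65.7 CPM (3.23). Tgfb1 went the other way, from 331 ± 36 to 156 ± 5.11 CPM (-1.08). Of 15 cytokine and suppressive effector genes, 8 were higher and 2, Tgfb1 and Il12a, were lower (median 1.72). Il12a lost its call without spleen mouse 3.

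Effector cytokines of other helper lineages were also higher. Ifng, which encodes interferon gamma, was at 3.27, 1.89 and 3.13 CPM in spleens and 18.4, 26.5, 32.7 and 20.6 CPM in tumors (log2 fold change of 3.15 ± 0.28 SE, adjusted p = 8.47e-08). Il17a stayed low, at 0.0385, 0.123 and 0 CPM, about 4 estimated counts over the 3 spleens, and 3.09, 2.98, 4.42 and 2.73 CPM in tumors. Il1r2, the decoy receptor for interleukin-1, rose from 4.5 ± 0.99 to 58.1 ± 3.57 CPM (3.71), and of 8 interleukin-1 family receptors 4 were higher and 1, Sigirr, was lower, a call lost without spleen mouse 1 and without tumor mice 3 and 4. Of 17 genes of tissue repair Tregs, 14 were higher and 1, Hpgds, was lower (median 1.72). The list shares Areg, Il10, Cxcr6, Ccr2, Klrg1 and others with the lists above, and Il1rl1, the interleukin-33 receptor, rose by 1.14.

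Adhesion and granule genes followed. Of 17 integrin and adhesion genes 11 were higher and 3 lower (median 0.60), with Itga1, the collagen-binding chain of resident T cells, at 2.63 and Itga4, a chain of lymphocyte homing integrins, at -2.34. Gzmb, which encodes granzyme B (chromosome 14, 56258838 to 56262260), was at 147, 181 and 109 CPM in spleens and 1552, 1541, 1647 and 1603 CPM in tumors (log2 fold change of 3.47 ± 0.15 SE, adjusted p = 2.04e-11). Nkg7, a granule membrane protein, rose from 16.7 ± 3.52 to 375 ± 54.7 CPM (4.50), and Prf1, which encodes perforin, rose by 2.07. Of 9 cytotoxic granule genes 6 were higher and 0 lower in limma, with 0 lower at an unadjusted p under 0.05 and 1 lower with limma-voom. That gene was Gzma (-1.18 ± 0.56, adjusted p = 0.0828 in limma), which was also called lower with the OX40minus samples fitted alone and without tumor mouse 3 or tumor mice 3 and 4. In the same samples NK cell genes summed to 23.5 to 24.5 CPM in spleens and 32.3 to 48.0 CPM in tumors, with 4 lower and Klrk1 higher. The CD8 T cell gene Cd8b1 was called higher. The part of NK cells and CD8 T cells in the granule genes was not tested.

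**Figure D3:**
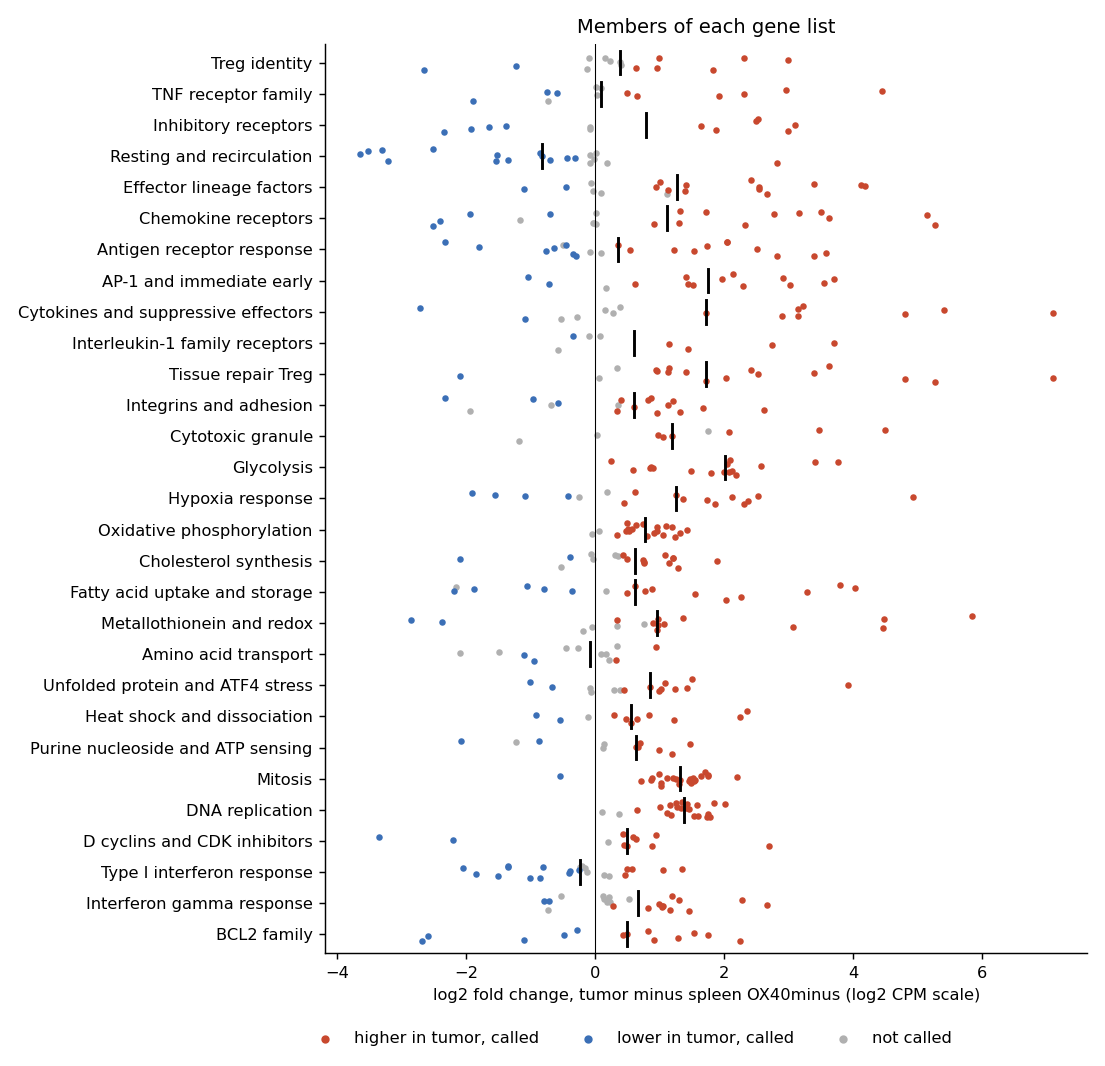
Log2 fold change, tumor minus spleen OX40minus, of each tested member of 29 gene lists (red, called higher; blue, called lower; gray, not called), with a black bar at the list median. Glycolysis, mitosis and DNA replication members lie to the right of 0 with few exceptions, and resting and recirculation genes to the left.

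Genes of antigen receptor and NF-kB signaling moved in both directions. Of 21 genes, 11 were higher and 7 lower (median 0.36), and 3 lower calls remained without tumor mice 3 and 4. The feedback inhibitors rose: Tnfaip3, which encodes the deubiquitinase A20, was at 133, 144 and 153 CPM in spleens and 1344, 1731, 1740.1 and 1265 CPM in tumors (log2 fold change of 3.40 ± 0.15 SE, adjusted p = 3.38e-11), and Nfkbia, which encodes the inhibitor IkB alpha, rose from 459 ± 23.6 to 1891 ± 78.1 CPM (2.04). The subunit genes Nfkb1 (from 467 ± 3.37 to 134 ± 12.2 CPM, -1.80) and Rel (-0.77) fell. Of the orphan receptors induced by antigen receptor signals, Nr4a2 (3.59) and Nr4a1 (1.73) rose and Nr4a3 was not called (-0.08). Egr3, an early gene of the same signal, fell from 43.9 ± 2.75 to 9.12 ± 3.03 CPM (-2.33).

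AP-1 and other immediate early genes rose, 11 of 14 with 2 lower (median 1.75). Fos was at 181, 156 and 169 CPM in spleens and 1128, 1207, 1382 and 1378 CPM in tumors (log2 fold change of 2.91 ± 0.12 SE, adjusted p = 9.34e-12), and the phosphatase gene Dusp1 rose from 152 ± 19.9 to 1789 ± 146 CPM (3.56). Atf3, a stress-induced factor, rose by 3.71. Tissue digestion is known to raise many of these genes, and of 11 heat shock and dissociation genes 8 were higher and 2 lower (median 0.55). Hspa1a, the inducible heat shock protein 70, was at 68, 28.2 and 10.7 CPM and 102, 175, 157 and 135 CPM (2.36), whereas Hsp90ab1 (-0.55) and Hspe1 (-0.93) fell. The higher count was 5 without spleen mouse 2 or 3, without tumor mouse 3 or 4, and without both of these tumors. The part of tissue processing in the immediate early genes was not tested.

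Every tested glycolysis gene was higher in tumors, 16 of 16 with a median log2 fold change of 2.02. The list summed to 4230 to 5310 CPM in spleens and 17100 to 18900 CPM in tumors. Tpi1, the triosephosphate isomerase (chromosome 6, 124810586 to 124814296), was at 94.8, 82.5 and 72.3 CPM and 855, 938, 918 and 824 CPM (log2 fold change of 3.42 ± 0.09 SE, adjusted p = 1.35e-13). Ldha, the lactate dehydrogenase that ends anaerobic glycolysis (chromosome 7, 46841475 to 46855627), was at 636, 522 and 476 CPM and 3297, 3357, 3234 and 2968 CPM (2.57 ± 0.10, adjusted p = 6.59e-12). Slc16a3, the lactate exporter MCT4, rose from 20.2 ± 0.511 to 277 ± 27.5 CPM (3.77), and the glucose transporter gene Slc2a1 rose by 2.04. The smallest rise was that of Gpi1 (0.24). Melanoma genes rose in the same samples to a sum of at most 187 CPM, and the part of melanoma cells in the glycolysis list was not tested.

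Of 17 hypoxia response genes, 11 rose and 4 fell (median 1.26). Bnip3, a mitochondrial protein induced through the oxygen-sensing factor Hif1a (chromosome 7, 138890836 to 138909519), was at 5.59, 4.18 and 5.26 CPM in spleens and 143, 165, 153 and 144 CPM in tumors (log2 fold change of 4.93 ± 0.12 SE, adjusted p = 6.89e-14). Hif1a transcripts themselves rose from 283 ± 26.5 to 1640.2 ± 101 CPM (2.54). Vegfa, the vessel growth factor, rose by 2.31, and Egln3, an oxygen-sensing prolyl hydroxylase, by 1.86. Its relative Egln1 fell from 91.8 ± 5.13 to 25.4 ± 7.92 CPM (-1.91). The other lower genes were Car12, Ddit4 and Pdk1 (-1.55, -1.09 and -0.43).

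Promoter sequences from RefSeq (build GRCm38.p6, the 250 bases before a start annotated there) are shown for Bnip3 and Ldha. These genes rose together, and both hold ACGTG, a form of the core of the hypoxia response element. ACGTG was searched on either strand with overlapping matches counted. The form GCGTG was not searched and is not marked. Where a gene has several RefSeq starts, only promoters with a match are shown, and the gene is counted if any of them matched. The Ldha sequence lies inside the Ldha span given above, so it belongs to a start within that span. Capitals mark the matches, 2 in Bnip3 (minus strand, chr7:138909507-138909756) and 5 in Ldha (plus strand, chr7:46845554-46845803), where a palindrome CACGTG holds a match on each strand.
Bnip3: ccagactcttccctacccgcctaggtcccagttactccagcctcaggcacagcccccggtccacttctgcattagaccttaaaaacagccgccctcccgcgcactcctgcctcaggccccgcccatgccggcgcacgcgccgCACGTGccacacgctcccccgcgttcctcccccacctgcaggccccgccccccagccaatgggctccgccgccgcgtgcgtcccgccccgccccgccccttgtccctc
Ldha: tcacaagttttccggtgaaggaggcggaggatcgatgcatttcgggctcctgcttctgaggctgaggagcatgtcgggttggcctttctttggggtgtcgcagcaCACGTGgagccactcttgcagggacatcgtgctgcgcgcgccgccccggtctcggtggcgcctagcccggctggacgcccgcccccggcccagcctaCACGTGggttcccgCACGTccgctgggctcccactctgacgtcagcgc
ACGTG was in 8 of 15 glycolysis promoters (53.3%) and 10 of 14 hypoxia response promoters (71.4%), beside 2476 of 10040 promoters (24.7%) of all tested genes with an entry. It was also in 6 of 14 antigen receptor response promoters (42.9%) and 4 of 10 TNF receptor promoters. A match is a description of the letters and no evidence of binding.

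**Figure D4:**
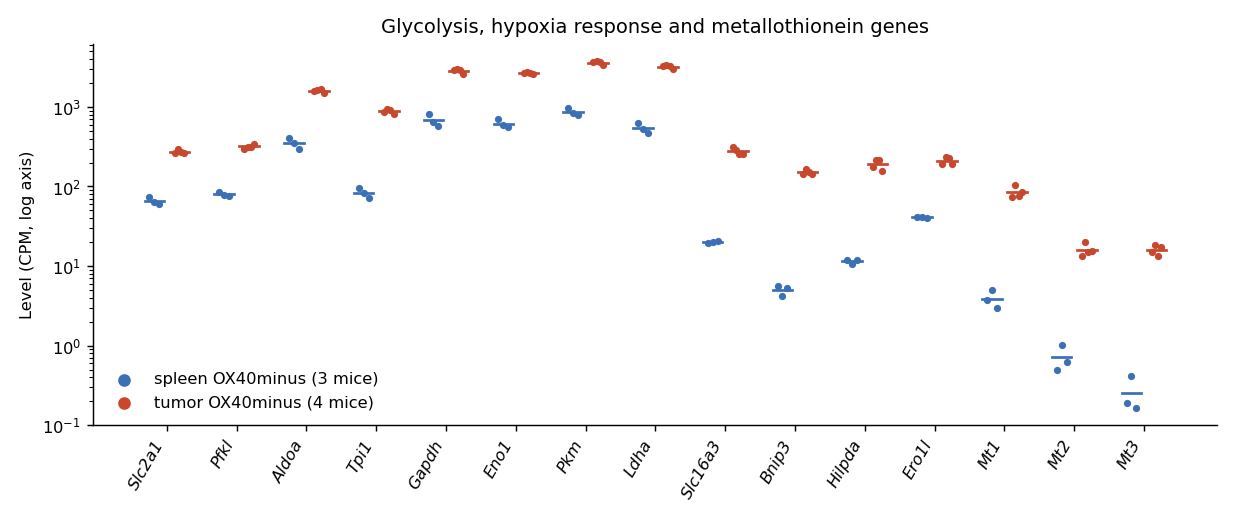
CPM (log axis) of glycolysis, hypoxia response and metallothionein genes in each OX40minus sample, spleen in blue (3 mice) and tumor in red (4 mice), with a bar at each group mean. The tumor samples lie above the spleen samples for each of the 15 genes.

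Metallothioneins, small proteins that bind zinc and copper, rose. Mt1 (chromosome 8, 94179082 to 94180327) was at 3.7, 4.97 and 3.01 CPM in spleens and 73.3, 105, 77 and 85.2 CPM in tumors (log2 fold change of 4.46 ± 0.20 SE, adjusted p = 2.65e-11). Mt2 (chromosome 8, 94172664 to 94173568) was at 0.5, 1.02 and 0.617 CPM and 13.5, 19.9, 15.1 and 15.5 CPM (4.49 ± 0.28, adjusted p = 1.39e-09). Mt3, known best from brain (chromosome 8, 94152607 to 94154146), was at 0.192, 0.411 and 0.165 CPM and 14.8, 18.3, 13.3 and 17.5 CPM (5.84 ± 0.32, adjusted p = 3.08e-10). The 3 genes lie side by side on chromosome 8 and are alike in sequence, so reads may have been divided between them. Slc30a1, the zinc exporter gene that the same metal-sensing factor is known to induce, fell from 38.7 ± 2.54 to 7.73 ± 2.62 CPM (-2.38).

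The promoters of Mt1 (plus strand, chr8:94178839-94179088) and Mt2 (plus strand, chr8:94172368-94172617) are shown since both genes rose together and lie next to each other. Capitals mark matches to TGCACNC on either strand, a form of the core of the metal response element, 1 in Mt1 and 2 in Mt2. Forms of the core with G in place of A were not searched and are not marked.
Mt1: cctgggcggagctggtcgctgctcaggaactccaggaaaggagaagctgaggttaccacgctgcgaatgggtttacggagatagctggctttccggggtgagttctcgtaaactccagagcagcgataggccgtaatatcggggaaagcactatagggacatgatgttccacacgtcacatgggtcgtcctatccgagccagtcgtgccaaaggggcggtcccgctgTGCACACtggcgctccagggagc
Mt2: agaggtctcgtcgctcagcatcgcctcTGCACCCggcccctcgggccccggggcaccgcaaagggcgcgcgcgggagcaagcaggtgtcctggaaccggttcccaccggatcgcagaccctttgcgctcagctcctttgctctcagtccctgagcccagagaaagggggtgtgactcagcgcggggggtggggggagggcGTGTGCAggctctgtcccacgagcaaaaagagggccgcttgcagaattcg
The searched form was in 2 of the 3 metallothionein promoters (66.7%), beside 12.8% of the promoters of all tested genes. It was also in 6 of 14 antigen receptor response promoters (42.9%). Of the 17 metallothionein and redox genes, 11 were higher and 2 lower (median 0.96). Srxn1, which repairs peroxiredoxins, rose by 3.08. The heme oxygenase gene Hmox1, also a marker of red pulp macrophages, fell from 137 ± 23 to 18.9 ± 4.48 CPM (-2.86).

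Other metabolic lists moved by less. Of 20 oxidative phosphorylation genes, 18 were higher and 0 lower in limma, with 0 lower at an unadjusted p under 0.05 and 0 with limma-voom, and Uqcrc2 (-0.05) was among the 2 not called. Their median was 0.78, and Cox7a2, a cytochrome oxidase subunit, was at 1.42. Of 18 cholesterol synthesis genes, 11 rose and 2 fell (median 0.62), with Idi1, which isomerizes the isoprenoid building block, at 1.90 and the synthase gene Hmgcs1 at 1.14. Mvd, 1 of the 2 lower genes (-0.39), lost its call without spleen mouse 1 or 2, without tumor mouse 4 and without either pair of tumors. Among 17 genes of fatty acid uptake and storage 10 were higher and 5 lower (median 0.61). Hilpda, a lipid droplet protein induced by low oxygen, rose from 11.6 ± 0.771 to 191 ± 30.2 CPM (4.03), and Dgat1, which makes triglycerides, rose from 48 ± 2.06 to 670.1 ± 16.9 CPM (3.80). The synthesis enzyme genes Fasn (-1.06) and Acaca (-1.88) fell.

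Stress of protein folding and nucleotide sensing were described by 2 more lists. Of 15 unfolded protein and ATF4 response genes, 9 were higher and 2 lower (median 0.85). Asns, the asparagine synthetase, was at 1.12, 0.986 and 1.03 CPM in spleens and 12.8, 14.7, 19.8 and 17.9 CPM in tumors (log2 fold change of 3.92 ± 0.20 SE, adjusted p = 1.76e-10), while Atf4 transcripts fell by 0.68 on the log2 scale. Amino acid transporters showed little, with 2 of 12 higher, 2 lower and a median of -0.09. Among 11 genes of purine nucleoside and ATP sensing, 6 were higher and 2 lower (median 0.63). P2rx7, a receptor through which extracellular ATP kills T cells, fell from 259.8 ± 37.6 to 60.8 ± 5.31 CPM (-2.09 ± 0.31, adjusted p = 2.58e-05), beside the rise of the ATP-degrading Entpd1.

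Genes of cell division were higher in tumors. Of 22 DNA replication genes 20 were higher and 0 lower in limma (median 1.38), with 0 lower at an unadjusted p under 0.05 and 0 with limma-voom, while Pole (0.38) and Cdt1 (0.10) were not called. Rrm2, the regulated subunit of ribonucleotide reductase (chromosome 12, 24708241 to 24714146), was at 67.9, 80 and 54.8 CPM in spleens and 254, 274, 272 and 279.9 CPM in tumors (log2 fold change of 2.01 ± 0.14 SE, adjusted p = 5.51e-09). Of 23 mitosis genes 22 were higher (median 1.31), such as Ccnb1, the mitotic cyclin B1, which was at 22.8, 32.7 and 22 CPM and 109.8, 132, 118 and 109.9 CPM (2.20 ± 0.17, adjusted p = 1.8e-08). Mki67, the usual protein marker of dividing cells (chromosome 7, 135689784 to 135716361), was the exception: it was at 169, 259.7 and 223 CPM in spleens and 148, 187, 125 and 130.2 CPM in tumors, values that overlapped, and was called lower (-0.55 ± 0.22, adjusted p = 0.0398). That call was lost with the first library of each mouse alone (adjusted p = 0.0518) and without any of spleen mice 2 and 3 and tumor mice 1, 3 and 4 (adjusted p between 0.0617 and 0.172).

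Cell cycle brakes and survival genes fell strongly at single genes. Cdkn1b, which encodes the inhibitor p27 (chromosome 6, 134920401 to 134925513), was at 324, 326 and 322 CPM in spleens and at 41.5, 28.2, 27.1 and 31.7 CPM in tumors (log2 fold change of -3.35 ± 0.19 SE, adjusted p = 5.68e-10). Of 11 D cyclin, E cyclin and CDK inhibitor genes, 8 were higher and 2 lower (median 0.49). Bcl2, the survival gene of resting lymphocytes (chromosome 1, 106538178 to 106714274), was at 210.3, 231 and 256 CPM and 46.3, 39.7, 30.4 and 29.3 CPM (-2.69 ± 0.16, adjusted p = 6.91e-10). Its relatives Bcl2l1, which encodes Bcl-xL (from 80.6 ± 10.8 to 196 ± 5.84 CPM, 1.29), and Bcl2a1d (2.24) rose, the latter being one of several near-identical copies. Of 13 genes of the BCL2 family list 8 were higher and 5 lower (median 0.49). Among the higher ones was an inhibitor of apoptosis gene that is also in the mitosis list and is no BCL2 relative. The lower ones included the death-promoting Bmf (-2.60), Bbc3 (-1.10) and Bcl2l11 (-0.48). Without tumor mice 1 and 2, 3 of the 5 lower calls remained.

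The 2 interferon lists moved apart. Of 22 genes known from the type I interferon response, 11 were lower and 5 higher (median -0.24), the higher count being 3 without spleen mouse 3, tumor mouse 3 or both tumor mice 3 and 4. Oas2 (-2.04), Mx2 (-1.85) and Irf7, the amplifying factor of the response (from 596 ± 109 to 336 ± 29 CPM, -0.81), fell, while Isg20 (1.34) and Ifit1 (1.06) rose. Of 22 genes known from the interferon gamma response, 12 were higher and 2 lower (median 0.67). Igtp, a GTPase of that response, was at 655, 606 and 441 CPM and 1504, 1408, 1722 and 1509 CPM (log2 fold change of 1.45 ± 0.12 SE, adjusted p = 2.67e-08), and the ligand genes Cxcl10 (2.66) and Cd274, which encodes PD-L1 (1.16), rose as well. Type I and gamma interferon share many targets, so the lists do not separate the signals. Cxcl9 (2.28) and Cxcl10 are also known products of macrophages and dendritic cells.

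Several genes known from other cells stood at the ends of the ranking. By the rule for named genes, the 12 with the largest rise were Cd209a, Hist1h2ap, Tsix, Tyrp1, Ccl8, Areg, Ccl22, Tgfa, Mgl2, Serpinh1, Mt3 and Cxcl2. Cd209a, a lectin of dendritic cells with close relatives in the genome, was at 0.0385, 0.0411 and 0.165 CPM in spleens and 84.3, 102, 126 and 75.6 CPM in tumors. Tyrp1, a pigment enzyme of melanocytes, was at 0.269, 0.288 and 0 CPM and 43, 47.1, 38.4 and 33.7 CPM. Tsix was at 0.0824, 0.318 and 0.591 CPM in spleens and 65.5, 77.4, 80.6 and 95.2 CPM in tumors, and at 0.345 and 74.2 CPM on average in OX40plus samples. It lies antisense to Xist on the X chromosome, and without knowledge of strand in the counting the reads of the pair cannot be told apart. The sex of the mice was not in the sources, and its part in this difference was not tested. Tgfa, like Areg a ligand of the epidermal growth factor receptor, was at 0.231, 0.0822 and 0.0412 CPM and 10.4, 12, 12.2 and 6.87 CPM (log2 fold change of 6.41 ± 0.77 SE, adjusted p = 2.68e-06).

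Among the 12 with the largest fall were Pax5, Cd5l, Cr2, Exosc6, Ms4a1, Pou2af1, Slc40a1, Treml4, Tlr9, Rhbdl1 and Sash1. Pax5, Cr2, Ms4a1 and Pou2af1 are B cell genes, and Slc40a1, Treml4 and Cd5l are known from splenic macrophages. In tumors Pax5 and Cd5l had 2 estimated counts each over the 4 samples, so the size of a fold would depend on the 0.5 added to each count. Ms4a1, which encodes CD20, was at 81.4, 106 and 95.5 CPM in spleens and 0, 0.269, 0.725 and 1.31 CPM in tumors (log2 fold change of -8.21 ± 0.91 SE, adjusted p = 1.17e-06).

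The tissue difference was then compared between the gates by an interaction term, the log2 fold change in OX40minus minus that in OX40plus Tregs. It was called for 1365 of 12512 genes (10.9%), 798 above 0 and 567 below. The count was 825 without spleen mouse 2, 891 without tumor mice 1 and 2, and 960 with the mouse within each tissue as a replicate block, which pairs the gates sorted from 1 mouse. Markers of other cells differed between the gates as well. Macrophage or monocyte genes summed to 901 to 1140 CPM in spleen OX40minus but 114 to 228 CPM in spleen OX40plus samples, and to 272 to 406 against 77.9 to 82.9 CPM in tumors. Red pulp macrophage genes summed to 474 to 622 against 84.7 to 104 CPM in spleens, and dendritic cell genes to 181 to 250 against 54.6 to 101 CPM in tumors. The part of these cells in the interaction was not tested. Among the 24 ranked genes and Tnfrsf4, 4 were called. Tnfrsf4 rose from 253 ± 40.9 to 1950.4 ± 152 CPM in OX40minus and from 704 ± 111 (SD, n = 3) to 3357 ± 203 CPM (SD, n = 4) in OX40plus Tregs (interaction 0.69 ± 0.17 SE, adjusted p = 0.0167), a call lost without spleen mouse 2 (adjusted p = 0.0505) and without tumor mice 1 and 2 (adjusted p = 0.0687). Areg rose by more in OX40minus Tregs, with means of 0.908 and 115 CPM against 2.42 and 85.3 CPM (interaction 1.95 ± 0.42, adjusted p = 0.00812), a call lost with limma-voom (adjusted p = 0.062). Cxcl2, a neutrophil-attracting chemokine, went from a mean of 0.524 to 23.8 CPM in OX40minus and from 3.65 to 24.3 CPM in OX40plus samples (interaction 2.90 ± 0.55, adjusted p = 0.00335).

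**Figure D5:**
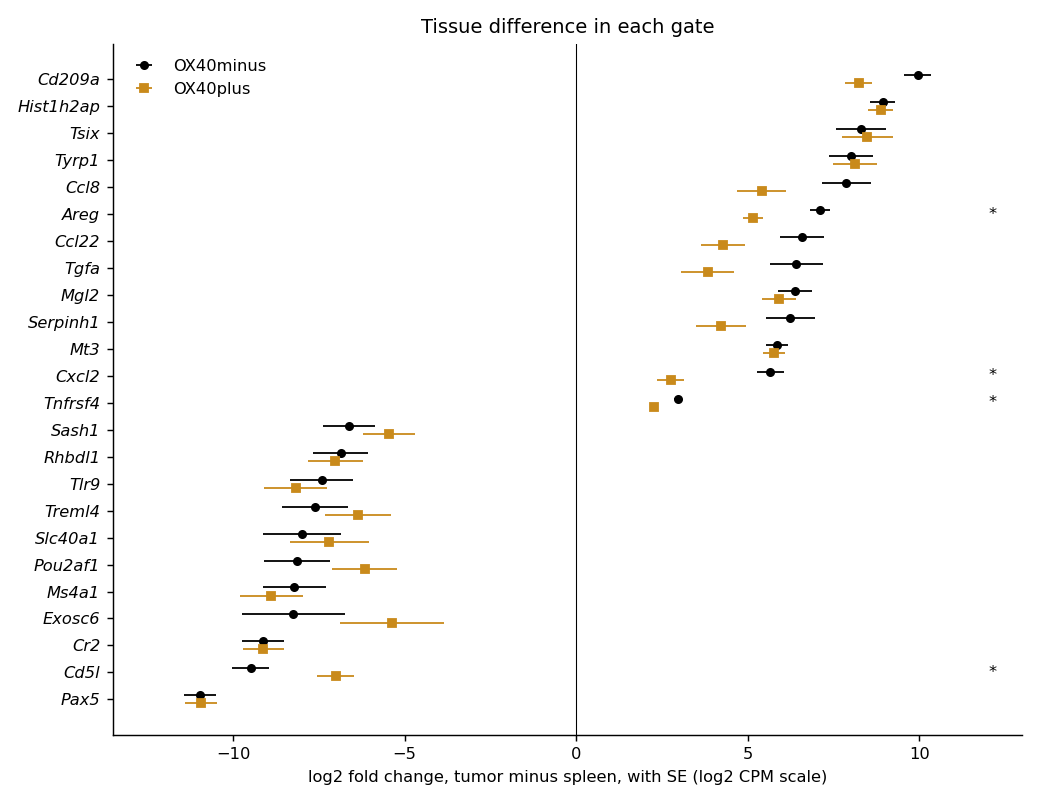
Log2 fold change, tumor minus spleen, with SE for 23 of the ranked genes and Tnfrsf4 in OX40minus (black circles) and OX40plus (yellow squares) Tregs, with a star where the interaction was called. Areg, Cxcl2, Cd5l and Tnfrsf4 carry a star, and the sizes for Pax5 and Cd5l depend on the 0.5 added to each count.

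Several of the lists held many members with a called interaction, beside 10.9% of all genes. The counts were 15 of 21 antigen receptor response genes, 15 of 22 type I interferon genes, 12 of 20 genes of the chemokine receptor list, 10 of 19 resting and recirculation genes and 8 of 13 TNF receptors. The type I interferon count was 7 without spleen mouse 3 and 5 without tumor mice 3 and 4, and the TNF receptor count was 5 without spleen mouse 2 and without tumor mice 1 and 2. Tcf7 fell to 30.5 CPM in OX40minus and to 1.87 CPM in OX40plus tumor Tregs, from 298 and 173 CPM in spleens (interaction 3.41 ± 0.51 SE, adjusted p = 0.000728). Klf2 and S1pr1 followed the same order: S1pr1 went from 391 to 394 CPM in OX40minus but from 202 to 126 CPM in OX40plus Tregs (0.69, adjusted p = 0.00176), and Klf2 had an interaction of 1.49 (adjusted p = 0.000889). The log2 fold changes of these 3 genes thus lay higher in OX40minus than in OX40plus Tregs, and that of Id3 had no called interaction (0.82, adjusted p = 0.244) except without tumor mice 1 and 2 (adjusted p = 0.0353).

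Several receptors and early genes had a larger log2 fold change in OX40minus than in OX40plus Tregs. Bhlhe40 rose from 24.6 to 452 CPM in OX40minus and from 55.6 to 206 CPM in OX40plus Tregs (interaction 2.28 ± 0.20 SE, adjusted p = 6.95e-06). Ccr8 rose by 5.15 and 3.66 on the log2 scale in the respective gates (1.48, adjusted p = 6.68e-05). Its mean went from 9.72 to 347 CPM in OX40minus and from 84.3 to 1067 CPM in OX40plus Tregs. Tnfrsf9 (1.67, adjusted p = 6.95e-06) and Fos (1.26, adjusted p = 0.000248) behaved likewise. Nrp1, the neuropilin gene of thymus-derived Tregs, was not called in OX40minus Tregs (146, 170.3 and 198 CPM in spleens, 187, 198, 197 and 213 CPM in tumors) and had a log2 fold change of -1.67 in OX40plus Tregs (interaction 1.89, adjusted p = 1.89e-05). On the other side, Ldha (-0.78, adjusted p = 0.00242), Prf1 (-2.11, adjusted p = 6.99e-05) and Il2ra (-0.80, adjusted p = 0.00255) rose by less or not at all in OX40minus Tregs. Of the 22 DNA replication genes 0 had a called interaction in limma, 4 at an unadjusted p under 0.05 and 0 with limma-voom, and of the 23 mitosis genes Ube2c alone was called, with 4 called when the mouse within tissue was a block and 0 without tumor mice 3 and 4.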

How the data were processed

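RNA was prepared with a Qiagen micro kit and Illumina TruSeq libraries, per the labels' protocols. The submitters' processing notes name bcl2fastq 2.19, kallisto, limma and the build mm10. For the summing of transcripts to genes, the scaling factor and the use of strand, the method is not given in the sources used here. In the deposited table, values are log2 CPM made by the authors for 13103 genes. Between 451 and 991 genes of each OX40minus library share its lowest value, as log2 of 0.5 counts over the library size would give, so that value gave the effective library size and, by inversion, estimated counts and CPM. Of the estimated counts above 0.5, 43.3% to 48.1% per library were whole within 0.01, so they are estimates and no count model was used. Values of genes that have near-identical copies in the genome are uncertain.

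The 2 libraries of each mouse and gate differed by about the sampling noise (median chi-square per gene of 0.505 to 0.573, against 0.455 from sampling alone and 1.42 to 5.84 between mice of a group) and were averaged and counted as 1 sample. The genes tested had 0.382 CPM or more in 3 or more samples and a total of 15 or more estimated counts. A linear model with 1 term per group over all 14 samples was fitted with limma 3.58.1 (R 4.3.3), with empirical Bayes and a mean-variance trend. The fit was checked on simulated counts in which few genes changed, so the check does not cover the share of genes called here. Adjusted p-values are Benjamini-Hochberg over 12512 genes, and log2 fold changes are on the scale of log2 CPM with 0.5 added to each count, which understates changes of genes near 0. P-values measure the spread between the mice of these groups.

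The samples and the 43 gene lists (615 genes, 529 tested) were chosen with earlier results of these data known, and lists are described by counts and medians without a set test. Genes to be named were the 12 highest and 12 lowest log2 fold changes among called genes without overlap and with a mean of 10 CPM or more in the higher tissue, the 4 members per list that had the lowest adjusted p (all of a shorter list), and a fixed set of Treg genes, 181 in all. The ranking left out antigen receptor segments, mitochondrial genes and predicted models. Some genes are not reported here by name. Other list members were named after their values were seen. Alternatives were the OX40minus samples alone, a replicate block, relative log expression and library total scaling, limma-voom, log2(CPM + 1), no filter, either library of each mouse, and leaving out each mouse. Leaving out tumor mice 1 and 2 or 3 and 4 together, and pairing the gates by mouse within tissue, were added after seeing the data. The labels give both gates of a tissue the same mouse, but their deviations from the group means correlated at most weakly in any pair, with either sign (Pearson's r over genes of -0.16 to 0.11). Coordinates are from GENCODE M21 on GRCm38, the assembly of mm10, and promoters from RefSeq.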

Additional observations from a re-analysis of the deposited data

Results flagged for a closer look

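Among 177 of the named genes, 12 had 1 of the 4 tumor OX40minus samples apart from the other 3 by Dixon's criterion, which chance alone meets in about 1 of 20 genes. Values are log2 CPM. Mouse 4 was lowest for Capg (10.46, the others 10.61 to 10.65), and mouse 2 was lowest for Il2ra (9.79, the others 9.96 to 9.98). Mouse 1 was highest for Cd2 (10.69, the others 10.50 to 10.51), and mouse 2 for the replication gene Mcm6 (8.93, the others 8.69 to 8.71). Mouse 3 was highest for the activating receptor Klrk1 (5.42, the others 4.81 to 4.86) and lowest for Krt10 (0.21, the others 1.33 to 1.45). Mouse 1 was lowest for the endothelial gene Egfl7 (-4.52, the others 0.24 to 0.74).

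The other 5 of these genes were low in tumors. Mouse 4 was highest for Sash1 (-0.62, the others -4.03 to -4.01), mouse 3 for Cd5l (-3.65) and Pax5 (-3.23), and mouse 2 for Exosc6 (-1.59, the others -4.82 to -4.72), each value being the mean over the log2 values of 2 libraries. Epor had 0 estimated counts in all 4 tumor samples, and its value of -4.72 in mouse 4 is that library's own lowest value.

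The tissue difference differed between the gates for 4 of the 25 genes for which this was asked, by limma's interaction term. Areg (1.95, from 7.10 in OX40minus and 5.15 in OX40plus, adjusted p = 0.00812), Cxcl2 (2.90, from 5.65 and 2.75, adjusted p = 0.00335) and Tnfrsf4 (0.69, from 2.96 and 2.26, adjusted p = 0.0167) had larger log2 fold changes in OX40minus samples. In mean CPM, Tnfrsf4 went from 253 to 1950 in OX40minus and from 704 to 3357 in OX40plus samples. Cd5l had an interaction of -2.48 (adjusted p = 0.0472), with 2 estimated counts over the OX40minus tumor samples, so its size depends on the 0.5 added to each count. The Cd5l call was lost under 6 of the 7 alternatives that leave out 1 sample, without tumor mice 1 and 2, with limma-voom (adjusted p = 0.414), with the first library of each mouse (adjusted p = 0.204), and with a replicate block by mouse number (adjusted p = 0.0603) or by mouse within tissue (adjusted p = 0.0915).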

How the results depend on the processing

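The 7387 called genes became 7154 to 7743 under the alternatives that keep all mice, lowest with the first libraries and highest with the OX40minus samples alone. Same-numbered tumor and spleen samples did not deviate together (Pearson's r over genes of -0.03 to 0.04), so the numbers do not show a pairing; with the replicate block, 7252 genes were called and the interaction was called for 1256. That block also called Sdc1, Dsp and Gzma lower in tumors and lost the call of Alas2. The block by mouse within tissue, added after seeing the data, can give the interaction alone, called 960 genes, and of the interactions of genes named in the report lost only that of Cd5l. Leaving out 1 mouse gave 6455 (without spleen mouse 3) to 7168 calls, 3296 to 3616 higher and 3159 to 3571 lower, 8184 to 8665 genes without overlap, and 825 (without spleen mouse 2) to 1249 interaction calls. Without tumor mice 1 and 2 or tumor mice 3 and 4, 6727 and 6721 genes were called and the interaction for 891 and 923, with fewer samples in the fit. Between 86.3% and 99.5% of the called genes kept their call, and 48.4% to 51.7% of calls were to the higher side. No named gene reversed, and 172 to 181 of 181 kept their side of the threshold. The scalings moved the median of all genes from -0.03 to -0.06. Depth limits genes at or under 0.106 to 0.124 CPM, the level of 3 counts.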

Other observations

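Gene groups chosen after their values were seen also differed between the tissues. Of 67 ribosomal protein genes, 62 were lower and 2 higher in tumor OX40minus Tregs (median log2 fold change -2.08), and their summed level was 60200 to 87100 CPM in the 3 spleen samples and 16800 to 18400 CPM in the 4 tumor samples. Of 30 replication-dependent histone genes, whose transcripts mostly lack a poly(A) tail, 16 were higher and 1 lower (median 1.76), with sums of 37.5 to 57.3 CPM and 667 to 984 CPM. Of 10 small noncoding RNA genes, 5 were higher and 3 lower (median 0.94), with sums of 5.78 to 7.39 CPM and 27.7 to 36.6 CPM. The part of RNA quality or library preparation in these differences was not tested, and many of these genes have near-identical copies.

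The second principal component of the OX40minus samples placed tumor mice 1 and 2 at 48.8 and 48.3 and tumor mice 3 and 4 at -51.1 and -49.2. Genes with the largest weights toward mice 3 and 4, chosen by that weight, were mostly genes of vessels and their supporting cells. Rgs5, a pericyte gene, was at 0, 0, 16.8 and 14.2 CPM in tumor mice 1 to 4. Col4a1, a chain of the basement membrane collagen, was at 3.48, 0.0359, 44.8 and 90.9 CPM. Esam, an endothelial adhesion gene, was at 0, 0.359, 9.38 and 10.9 CPM. Genes with weights toward mice 1 and 2 had smaller differences, such as Atad5, a replication gene, at 32.8, 44.2, 17.8 and 12.6 CPM.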
